A study of Mus musculus with 4 samples.

Results

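The Myc, Mxd and Mlx network is a family of transcription factors with a basic helix-loop-helix and leucine zipper (bHLH-Zip) that bind the E-box CACGTG as dimers. Its 10 genes examined here were taken by name from the 37310 genes of the table: Myc, Mycn, Mycl, Mxd1, Mxd3, Mxd4, Mxi1, Mnt, Mlx and Mlxip. Their measured values were not used to choose them, though earlier results of these data were known at that time. Mycl is listed under its older symbol Mycl1, and the other 9 under these names.

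Myc, Mycn and Mycl pair with the small protein Max and activate genes for growth, ribosome production and metabolism. The Mxd proteins, Mxi1 and Mnt compete for Max and repress through Sin3 corepressors, and Mnt, Mxd1 and Mxd4 can also pair with Mlx. Mlx in turn is the partner of the glucose-sensing factors Mlxip (MondoA) and Mlxipl (ChREBP). In mouse embryonic stem cells (mESCs) Myc and Mycn are known to support self-renewal, and Bmal1, which with Clock drives the circadian clock, binds E-boxes of the same core.

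The study asked what loss of Bmal1 does to gene expression in naive pluripotent cells, by mRNA-seq of 2 wild-type and 2 Bmal1-/- libraries. All were made from JM8 mESCs, a line of the C57BL6/N strain, kept without feeder cells on gelatin in serum-free 2i + LIF medium. Each group thus had LIF, the Mek inhibitor PD0325901 at 1 µM and the Gsk3 inhibitor CHIR99021 at 3 µM. The mutation was made with CRISPR/Cas9 near the amino terminus of Bmal1 in a clonal line, and the wild-type cells are the parental line, so that genotype and clone cannot be told apart. Replicates are given as biological replicates of 1 line each, and p-values measure the spread between such cultures only. In limma that spread is in large part pooled over genes of like level.

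Reads on genes ranged from 21504265 to 23329034 per library, and the deposited value of a gene is its read count scaled by a factor of its library (trimmed mean of M values, TMM), called the normalized value here. Bmal1 is listed as Arntl, with normalized values of 678 and 733 (wild-type) against 556 and 590 (Bmal1-/-). By limma its log2 fold change, Bmal1-/- over wild-type, came to -0.30 with a standard error (SE) of 0.07 and an adjusted p of 0.0011. Transcripts of Bmal1 were thus found in every library and cannot serve to tell the genotypes, so that libraries are named by their labels. For its Bmal1-/- line the paper reports frame shifts in both alleles and no detectable Bmal1 protein by Western blot. It also found no Bmal1 mRNA by RT-qPCR, unlike the reads here. A gene's read total does not show such frame shifts. Pou5f1 (Oct4), the defining gene of pluripotency, had normalized values of 26483 to 29164 over the 4 libraries. The 7 two-cell-like markers tested (Zscan4 genes and others, whose near-identical copies can share reads) all rose, and the summed value of that list was 206 to 254 in wild-type and 2697 to 2723 in Bmal1-/- libraries. Their part in the results that follow was not tested.

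E-boxes in the genes' own promoters are shown first, because the family binds this sequence. RefSeq promoter windows of assembly GRCm38.p6, from 250 bases before to 50 bases after a gene's start, were at hand for 9 of the 10 genes, all but Myc. The 6 letters CACGTG, which read the same on both strands, occurred in the windows of 3 genes. The sites are given below with 20 bases on each side, 5′ to 3′ on the strand of the gene, with the E-box in capitals.
Mxd4: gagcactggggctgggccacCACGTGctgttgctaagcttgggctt
Mnt: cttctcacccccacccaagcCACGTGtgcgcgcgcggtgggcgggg
Mlx: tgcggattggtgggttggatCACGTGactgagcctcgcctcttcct

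The Mxd4 sequence lies at chr5:34187904-34187949 on the minus strand, with the E-box starting 219 bases before the gene's start. The Mnt sequence lies at chr11:74830781-74830826 on the plus strand, with the E-box 123 bases before the start. The Mlx sequence lies at chr11:101087230-101087275 on the plus strand, with the E-box 40 bases before the start. Of all 27025 genes with a window, 8.09% held at least 1 CACGTG. The windows of Mycn, Mycl, Mxd1, Mxd3, Mxi1 and Mlxip did not hold these letters, which says nothing of sites outside them. These coordinates are not of the build used for the reads, and no binding was measured.

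All 10 genes were expressed in mESCs and passed the filter (a mean normalized value of at least 10 over the 4 libraries), as did 14510 genes in all. With limma on log2(value + 1) and a Benjamini-Hochberg adjusted p under 0.05, Mycl and Mxd4 were higher in Bmal1-/- cells and Mycn, Myc, Mxd3 and Mnt were lower. Mxd1, Mxi1, Mlx and Mlxip did not pass the test. The count of 6 of 10 stands beside 52.6% of all genes tested, 24.0% higher and 28.6% lower, so that the share of network genes called is near that of genes in general. With equal library totals the genes called split into 4200 higher and 3194 lower, in place of 3488 and 4151. By limma, edgeR and DESeq2 alike 0 of the 10 were past 2-fold with an adjusted p under 0.05, also at an unadjusted p under 0.05, beside 7.21% of all genes tested in limma. In limma their median log2 fold change was -0.08 beside -0.03 for all genes tested. The values of the groups did not overlap for 8 of the 10, beside 76.0% of all genes tested. In mRNA from whole cultures, fewer cells that express a gene and less of its RNA per cell cannot be told apart.

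**Figure D1:**
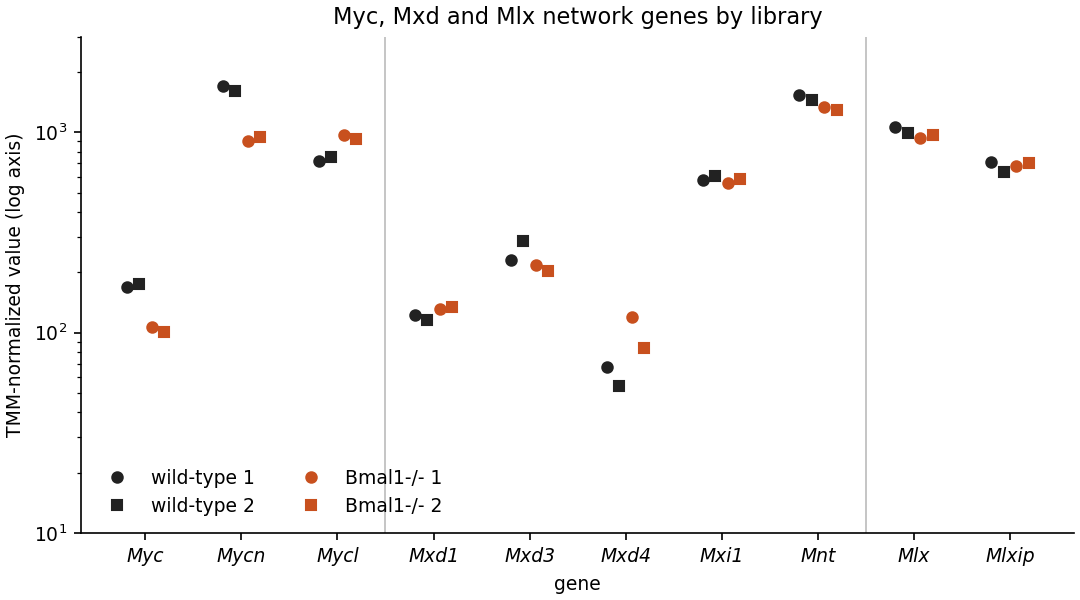
TMM-normalized value (log axis) of the 10 genes in each of the 4 libraries, wild-type in black and Bmal1-/- in orange, with circles for replicate 1, squares for replicate 2 and grey lines between the Myc genes, their antagonists and the Mlx genes. Mycn fell from 1613 to 1695 in wild-type to 901 to 945, while the values of Mxi1 and Mlxip overlapped between groups.

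Levels per kb of exon, which allow comparison between genes, put Mlx first in wild-type cells at 514 ± 24.3 (SD, n = 2) and Mycn next at 502 ± 17.7. The ranges of the 2 wild-type libraries overlapped for Mlx and Mycn and for no other neighbours in this order. Mnt followed at 322 per kb, then Mycl at 182, Mxd3 at 124, Mxi1 at 106, Mlxip at 81.7, Myc at 63.3, Mxd1 at 25.5 and Mxd4 at 15.7. Mycn was thus the most abundant Myc transcript, with Myc itself among the 3 lowest of the 10. In Bmal1-/- cells the order ran Mlx (475 per kb), Mnt (283), Mycn (280), Mycl (235), Mxi1 (101), Mxd3 (101), Mlxip (84.1), Myc (38.1), Mxd1 (28.3) and Mxd4 (26.3). There the ranges of the replicates overlapped for Mnt and Mycn, for Mxi1 and Mxd3, and for Mxd1 and Mxd4. The order depends on the length used. Per kb of the longest transcript Mycn stood above Mlx in wild-type (619 against 523) and above Mnt in Bmal1-/- cells (346 against 286).

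Among the activators, Mycn (ENSMUSG00000037169, chr12:12942902-12948720 in mm9, minus strand) moved most for its error. N-Myc, its product, is the form of Myc known for its part in early embryos and the nervous system. In wild-type its normalized value was 1695 and 1613, against 901 and 945 in Bmal1-/- cells. Every Bmal1-/- value lay far below every wild-type value. Limma put the log2 fold change at -0.84 (SE 0.06, adjusted p = 1.0e-10), which left 55.8% of the wild-type mean. In absolute size this exceeded the change of 90.1% of the genes tested. Over 16 alternatives of filter, scaling, test and libraries the Mycn adjusted p was at most 0.0082, in limma without the trend of variance over level.

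Myc (ENSMUSG00000022346, chr15:61816946-61821929, plus strand), the gene of c-Myc, fell as well. The wild-type libraries held normalized values of 169 and 175, the Bmal1-/- libraries 107 and 100, resting on 160 and 165 reads against 114 and 105. The groups stood apart by more than either pair of replicates differed. The log2 fold change by limma was -0.73 (SE 0.13, adjusted p = 8.1e-05), which left 60.3% of the wild-type mean.

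Mycl (ENSMUSG00000028654, chr4:122672895-122679728, plus strand), the gene of L-Myc, rose. Normalized values of 723 and 751 (wild-type) compare with 968 and 927 (Bmal1-/-). Both Bmal1-/- values were above both wild-type values, at 129% of the wild-type mean. Limma put the log2 fold change at 0.36 (SE 0.06, adjusted p = 4.7e-05), the opposite direction to Mycn and Myc. The calls of these 3 genes held under all 16 alternatives of filter, scaling, test and libraries.

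**Figure D2:**
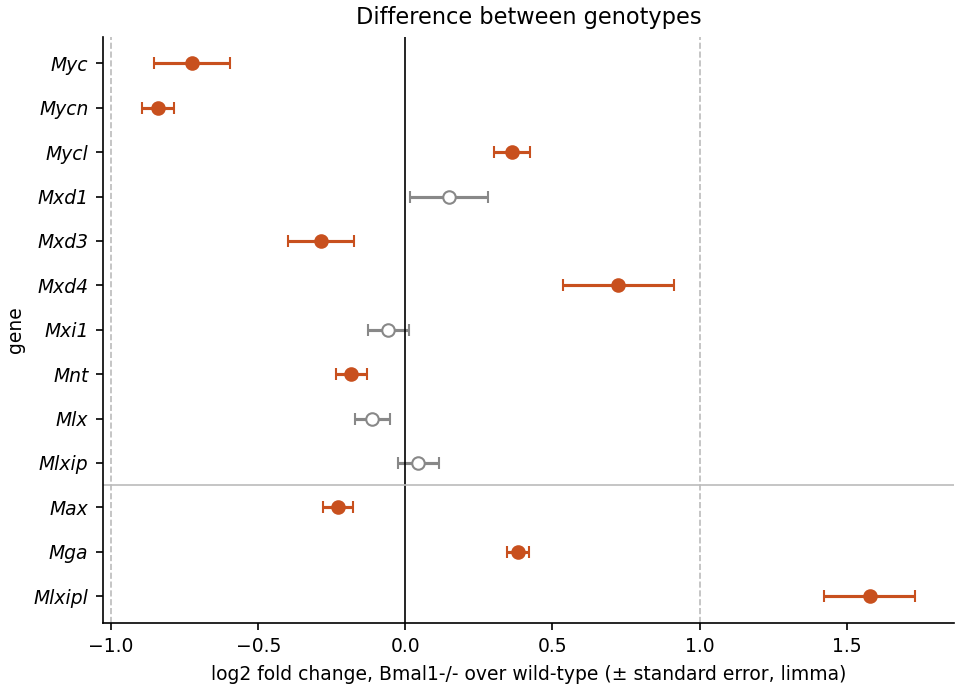
log2 fold change, Bmal1-/- over wild-type, from limma with its standard error (bars) for the 10 genes and, under the grey line, Max, Mga and Mlxipl. Filled points have an adjusted p under 0.05, open points do not, and dashed lines mark 2-fold; only Mlxipl, at 1.58, lies past one.

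Of the antagonists among the 10 genes, Mnt (ENSMUSG00000000282, chr11:74644422-74659227, plus strand) was the most abundant. Mnt is the broadly expressed repressor that stands in for the Mxd proteins in cycling cells. In wild-type its normalized value was 1534 and 1445, against 1332 and 1290 in Bmal1-/- cells. The groups did not overlap, though the gap between them was little wider than the difference between the wild-type replicates. The log2 fold change by limma was -0.18 (SE 0.05, adjusted p = 0.0067). This call was lost in 6 of 16 alternatives, among them equal library totals (adjusted p = 0.059), quantile normalization (0.061), DESeq2 (0.11) and the fit without Bmal1-/- replicate 2 (0.079).

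Mxd4 (ENSMUSG00000037235, chr5:34516536-34530369, minus strand), a repressor linked to differentiation, rose but is the least abundant of the 10. The wild-type libraries held normalized values of 67.4 and 54.2, the Bmal1-/- libraries 120 and 83.9, from 64 and 51 reads against 128 and 88. The groups did not overlap, but Bmal1-/- replicate 1 stood well above replicate 2. Limma put the log2 fold change at 0.72 (SE 0.19, adjusted p = 0.0030), and without Bmal1-/- replicate 1 it was 0.47. The call was lost in 3 of 15 alternatives, also in limma with no filter (adjusted p = 0.098) and without the intensity trend (0.083).

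Mxd3 (ENSMUSG00000021485, chr13:55426529-55431119, minus strand) differs from the other Mxd genes in being expressed in dividing cells. Normalized values of 231 and 286 (wild-type) compare with 218 and 203 (Bmal1-/-). Wild-type replicate 2 was the high value, and wild-type replicate 1 lay close to the Bmal1-/- libraries. The log2 fold change by limma was -0.29 (SE 0.11, adjusted p = 0.037). Without wild-type replicate 2 it was -0.13 (adjusted p = 0.40), and the call was also lost without Bmal1-/- replicate 1 (adjusted p = 0.070) or Bmal1-/- replicate 2 (0.21), and in 8 of 16 alternatives in all. Mxd3 shares 104 bases of exon with Prelid1 on the opposite strand, whose normalized values were 4891 and 5127 in wild-type and 3910 and 3810 in Bmal1-/- libraries. The kit kept the strand, but whether the counting used it is not given in the sources used here.

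Mxd1 (ENSMUSG00000001156, chr6:86597038-86619153, minus strand), the founding member of the Mxd repressors, had normalized values of 122 and 116 (wild-type) against 131 and 134 (Bmal1-/-). The groups did not overlap, yet the log2 fold change of 0.15 (SE 0.13, adjusted p = 0.36) did not pass the test. Mxi1 (ENSMUSG00000025025, chr19:53384996-53450300, plus strand), a repressor of the same kind, had normalized values of 580 and 605 (wild-type) against 556 and 584 (Bmal1-/-). These overlapped, and limma gave a log2 fold change of -0.06 (SE 0.07, adjusted p = 0.51). The repressors thus held 1 gene called higher, 2 called lower and 2 that did not pass the test. Among all genes tested 24.0% were higher and 28.6% lower. Each of the repressor calls was lost in some alternatives, and with DESeq2 or equal library totals neither Mxd3 nor Mnt was called.

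In the Mlx branch neither gene passed the test. Mlx (ENSMUSG00000017801, chr11:100948591-100953521, plus strand), the Max-like partner protein, had normalized values of 1062 and 993 (wild-type) against 933 and 968 (Bmal1-/-). The groups did not overlap but lay close together, and limma gave a log2 fold change of -0.11 (SE 0.06, adjusted p = 0.12). Without wild-type replicate 2 it was -0.16 with an adjusted p of 0.043. Mlx shares 385 bases of exon with Psmc3ip on the opposite strand, at 695 and 728 in wild-type and 622 and 539 in Bmal1-/- libraries.

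Mlxip (ENSMUSG00000038342, chr5:123844807-123915306, plus strand) encodes MondoA, which moves to the nucleus when hexose phosphates accumulate. In wild-type its normalized value was 707 and 635, against 678 and 704 in Bmal1-/- cells. The wild-type replicates lay on either side of the Bmal1-/- libraries, and limma gave a log2 fold change of 0.04 (SE 0.07, adjusted p = 0.62). A transcript on the opposite strand, Gm15747, overlaps its exons but held at most 1 read in a library.

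Levels per kb were summed for the Myc genes and for the Mxd genes, Mxi1 and Mnt. These sums leave out Mga, a Max partner of a repressive complex, at 492 per kb in wild-type and 641 in Bmal1-/- cells. The summed level of Myc, Mycn and Mycl was 756 and 740 per kb in wild-type and 553 and 553 in Bmal1-/- libraries, a log2 difference of -0.44. The summed level of the Mxd genes, Mxi1 and Mnt was 589 and 596 in wild-type and 551 and 531 in Bmal1-/- libraries, a log2 difference of -0.13. The log2 ratio of the first sum to the second was 0.36 and 0.31 in wild-type and 0.01 and 0.06 in Bmal1-/- libraries. The difference of -0.30 exceeded the larger SD of the groups (0.04). It is given as a value with no test, and an exact permutation test of 2 libraries against 2 could not give a two-sided p below 0.333. Transcript sums do not give the amounts of the proteins.

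The make-up of the Myc sum differed between the groups. Mycn made up 68.1% and 66.2% of the summed Myc-gene level in wild-type and 49.5% and 51.9% in Bmal1-/- libraries. Mycl made up 23.7% and 25.1% in wild-type and 43.4% and 41.5% in Bmal1-/- libraries. Myc stayed a minor part, with 8.21% and 8.71% in wild-type and 7.13% and 6.66% in Bmal1-/- libraries. Of the sum of the Mxd genes, Mxi1 and Mnt, without Mga, Mnt held 52.3% to 56.3% in all 4 libraries. Per kb of the longest transcript its share was 49.6% to 53.7%.

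**Figure D3:**
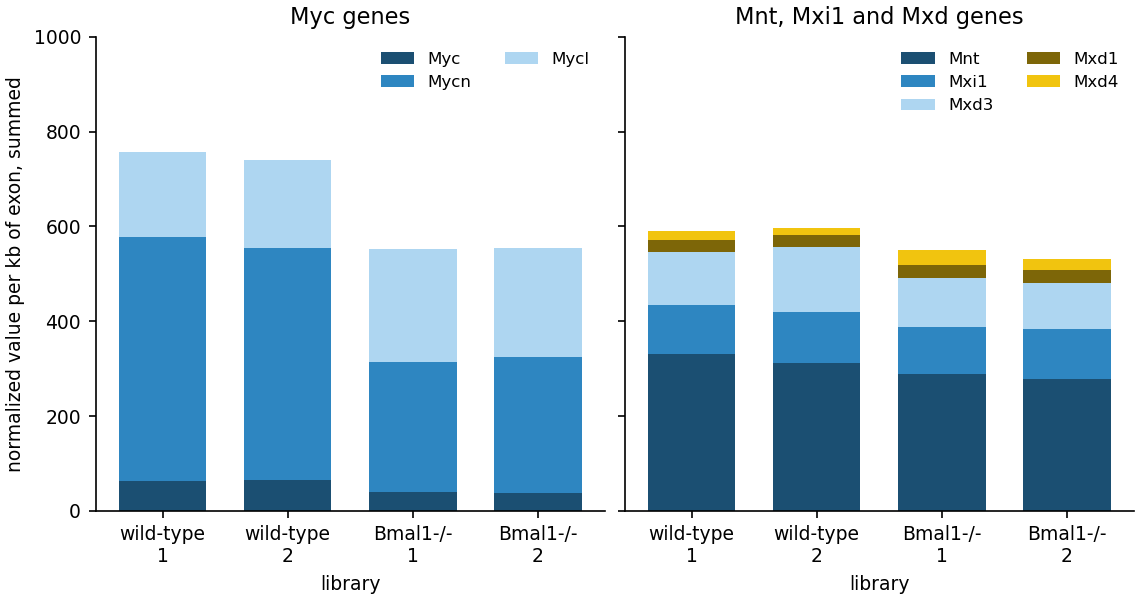
Normalized value per kb of exon in each library, stacked by gene, for the Myc genes (left) and for Mnt, Mxi1 and the Mxd genes (right). The summed Myc level was 740 to 756 in wild-type and 553 in both Bmal1-/- libraries, with a smaller Mycn segment and a larger Mycl segment, and the right stacks differ less.

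The other factors of the network, which were not among the 10, all passed the test, as did 52.6% of all genes tested. Max, the obligate partner of Myc and Mxd proteins, had normalized values of 1755 and 1695 (wild-type) against 1480 and 1464 (Bmal1-/-), a log2 fold change of -0.23 (SE 0.05, adjusted p = 6.5e-04). Mga, a large Max partner of a repressive Polycomb complex that silences germ cell genes in mESCs, had normalized values of 7673 and 7418 (wild-type) against 9812 and 9859 (Bmal1-/-), a log2 fold change of 0.38 (SE 0.04, adjusted p = 6.5e-08). Mlxipl (ChREBP), the other Mondo protein beside Mlxip, had normalized values of 49.5 and 54.2 (wild-type) against 151 and 162 (Bmal1-/-). Its log2 fold change of 1.58 (SE 0.15, adjusted p = 4.7e-08) was past 2-fold, from a low level of 9.66 per kb in wild-type. These 3 calls held under all 16 alternatives.

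Genes that work with the network were taken from lists written by hand from general knowledge, with earlier results of these data known. Of 18 Myc co-activators and corepressors, 3 were higher, 6 were lower and 9 did not pass the test, with a median of -0.07. The 9 of 18 called stand beside 52.6% of all genes tested. With equal library totals 5 were higher and 5 lower. Ncor1, a corepressor scaffold, rose by 0.47 on the log2 scale and Ep400, a chromatin remodeler that binds Myc, by 0.29. Ruvbl1, an ATPase cofactor of Myc, had a log2 fold change of -0.46 and Kat5 (Tip60), an acetyltransferase recruited by Myc, of -0.38. Of 13 genes listed under Myc protein turnover, 4 were higher, 2 were lower and 7 did not pass, with a median of 0.04, so that 46.2% were called. The list also holds the Myc-binding proteins Mycbp and Mycbp2, and turnover itself was not measured. Mycbp2, a large ubiquitin ligase, rose by 0.68 and Huwe1, a ubiquitin ligase for the Myc proteins, by 0.34, while Mycbp had -0.32. The Mycbp call was lost in 6 of 16 alternatives, among them those leaving out wild-type replicate 2 (-0.20) or Bmal1-/- replicate 1 (-0.23). Without wild-type replicate 1 the turnover genes that were lower numbered 4, and without wild-type replicate 2 or Bmal1-/- replicate 1 they numbered 1. Without the intensity trend limma called 0 lower (1 at an unadjusted p under 0.05) and 2 higher, and DESeq2 called 1 lower and 3 higher.

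Known targets activated by Myc were more often called lower than higher, by small amounts. Of 25 ribosome biogenesis and nucleolar targets, 19 were lower, 1 was higher and 5 did not pass the test, with a median log2 fold change of -0.18. Of all genes tested 28.6% were lower and 24.0% higher, with a median of -0.03. All 25 averaged at least 100, and of the 10486 such genes 3861 were lower and 2540 higher, with a median of -0.06. Gar1, of the snoRNPs that modify ribosomal RNA, had a log2 fold change of -0.50 and Nop16, a nucleolar protein, of -0.45, while Utp20, of the small subunit processome, rose by 0.18. Of 23 nucleotide, polyamine and translation targets, 14 were lower, 1 was higher and 8 did not pass, with a median of -0.17. Nme1, a nucleoside diphosphate kinase, had -0.58 and Hspe1, a mitochondrial chaperonin, -0.36, while Prps2, which makes the ribose donor of nucleotides, rose by 0.40. The medians stayed below 0 in all alternatives, from -0.19 to -0.12 for the first list and from -0.20 to -0.11 for the second. Without the intensity trend in limma only 7 and 6 genes of these lists were lower, and without Bmal1-/- replicate 1 the second list held 9. With equal library totals 14 genes of the first list and 11 of the second were lower, and 1 and 4 were higher.

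Genes known to be repressed by Myc were not mostly higher. Of 10 tested, 3 were higher, 6 were lower and 1 did not pass, with a median of -0.31. All genes tested had 24.0% higher and 28.6% lower, with a median of -0.03. Cebpa, a differentiation factor, rose by 1.48 from low values (16.9 and 12.7 in wild-type, 51.7 and 35.3 in Bmal1-/- libraries), and Ndrg2, a stress-related gene, rose by 0.59. Ndrg1, its relative, had a log2 fold change of -0.95, and Cdkn1c (p57), an inhibitor of cyclin-dependent kinases that is imprinted, of -1.09. The number lower was 3 with DESeq2, without the intensity trend and with no filter.

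Of 11 MondoA and ChREBP targets, 1 was higher, 2 were lower and 8 did not pass the test, with a median of 0.02. The 27.3% called stand beside 52.6% of all genes tested. Txnip, an inhibitor of glucose uptake and a direct MondoA target, had normalized values of 1163 and 1217 (wild-type) against 726 and 732 (Bmal1-/-). On the log2 scale it changed by -0.71 (SE 0.06, adjusted p = 3.8e-09), while Mlxip and Mlx did not pass the test and Mlxipl rose. Elovl6, a fatty acid elongase, had normalized values of 7635 and 7365 (wild-type) against 12145 and 12532 (Bmal1-/-), a log2 fold change of 0.72. Klf10 was at -0.12, a call lost in 11 of 16 alternatives. The number higher was 4 with quantile normalization or without wild-type replicate 1, and 3 with equal library totals. The number lower was 1 without wild-type replicate 2, Bmal1-/- replicate 1 or Bmal1-/- replicate 2.

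**Figure D4:**
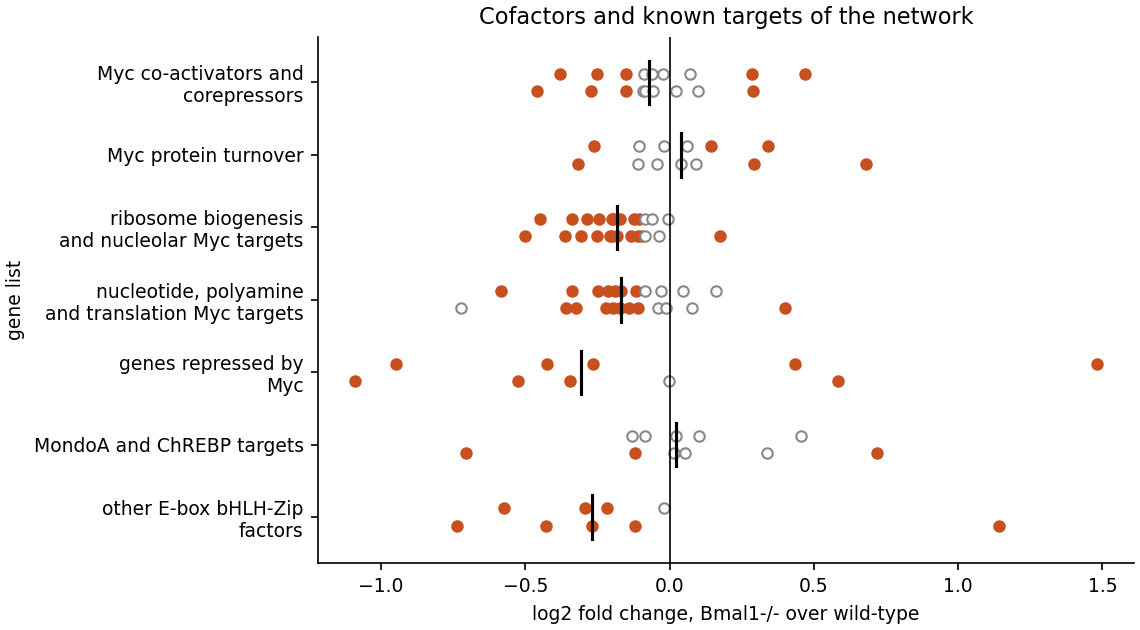
log2 fold change, Bmal1-/- over wild-type, of each gene tested in 7 lists of cofactors, targets and other E-box factors. Filled points have an adjusted p under 0.05, open points do not, and black bars are list medians, which run from -0.31 (genes repressed by Myc) to 0.04 (Myc protein turnover).

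Of the other E-box factors with a bHLH-Zip or related domain, 9 of 10 were tested. Of these 7 were lower, 1 was higher and 1 did not pass, with a median of -0.27. Among all genes tested 28.6% were lower and 24.0% higher. All 9 averaged at least 100, and of the 10486 such genes 3861 were lower and 2540 higher. The number lower was 5 with equal library totals, quantile normalization, DESeq2, no filter, a mean of at least 1, no intensity trend or without Bmal1-/- replicate 2. Tfap4 (AP4), itself a known Myc target, had a log2 fold change of -0.74 and Tfe3, a regulator of lysosomes and of exit from naive pluripotency, of -0.58. Tcfl5, best known from spermatocytes, rose by 1.14.

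Markers of cell states were counted beside the network genes. Of the 11 naive pluripotency markers, 5 were higher, 5 were lower and 1 did not pass. Called were 90.9% of these, beside 52.6% of all genes tested. Tfcp2l1 and Tbx3 rose by 0.40 and 0.36 on the log2 scale, while Dppa3 had -0.95 and Sox2 -0.17. The Sox2 call was lost in 3 of 16 alternatives, among them limma with no filter (adjusted p = 0.064) and without the intensity trend (0.11). Without Bmal1-/- replicate 1 the log2 fold change of Sox2 was -0.13. Of the lower 5, only 2 were past the threshold with equal library totals or quantile normalization, and 1 without the intensity trend. Of 10 fibroblast markers, 3 were tested, and the defining genes Dcn and Lum were at 0 in all libraries. The fibroblast sum was 97.7 to 102 in wild-type and 124 to 136 in Bmal1-/- libraries, and Thy1 alone was called (0.59, lost in 8 of 15 alternatives).

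Primitive endoderm markers summed to 607 to 639 in wild-type and 717 to 752 in Bmal1-/- libraries. Of 5 tested, 3 were higher (Sox17 1.27, Gata4 0.55, the latter lost in 4 of 15 alternatives) and Sox7 was lower at -2.41. These rest on low values for Sox17, 10.5 and 14.9 (wild-type) against 32.9 and 30.5 (Bmal1-/-). Sox7 was at 46.4 and 52.1 (wild-type) against 5.64 and 12.4 (Bmal1-/-). Trophoblast markers summed to 2086 to 2098 in wild-type and 1095 to 1139 in Bmal1-/- libraries. Of 7 trophoblast markers tested, 3 were lower (Tfap2c -1.36, Eomes -0.83) and 1 higher (Ascl2 0.58, lost in 8 of 15 alternatives). Neural markers summed to 3703 to 4006 in wild-type and 2196 to 2347 in Bmal1-/- libraries. Of 5 tested, 2 were lower (Pax6 -1.71, Tubb3 -1.22), and Fabp7 was at 0. Pax6 too had low values, 45.3 and 24.4 in wild-type against 9.39 and 9.54 in Bmal1-/- libraries. Called among all genes tested were 52.6%, with 24.0% higher and 28.6% lower. The share called was above 52.6% for primitive endoderm markers, near it for trophoblast markers and below it for neural markers. All of these lists are short. Most of the difference in the trophoblast sum and in the neural sum lay in a single gene each. Without Tfap2c the trophoblast sum was 654 to 657 in wild-type and 554 to 563 in Bmal1-/- libraries, and without Tubb3 the neural sum was 1191 to 1221 and 1108 to 1155. Of the other markers tested, Krt7, Krt8, Krt18, Nes, Sox11 and Slc1a3 did not pass the test, with log2 fold changes from -0.44 to 0.19. Two-cell-like markers had a median log2 fold change of 3.48, with Zscan4c at 3.79 and Zscan4f at 3.69. The part of these markers in the values of the network genes was not tested.

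The stability of the 10 genes to the processing differed. The log2 fold change of Mycn ranged from -0.88 to -0.80 with a library left out and from -0.84 to -0.78 under the other settings. Myc ranged from -0.77 to -0.68 and from -0.86 to -0.67, and Mycl from 0.33 to 0.39 and from 0.36 to 0.42. Mxd4 ranged from 0.47 to 0.98 with a library left out, the widest range of the 10. Mxd3 ranged from -0.44 to -0.13 and Mnt from -0.23 to -0.14 in the same fits.

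**Figure D5:**
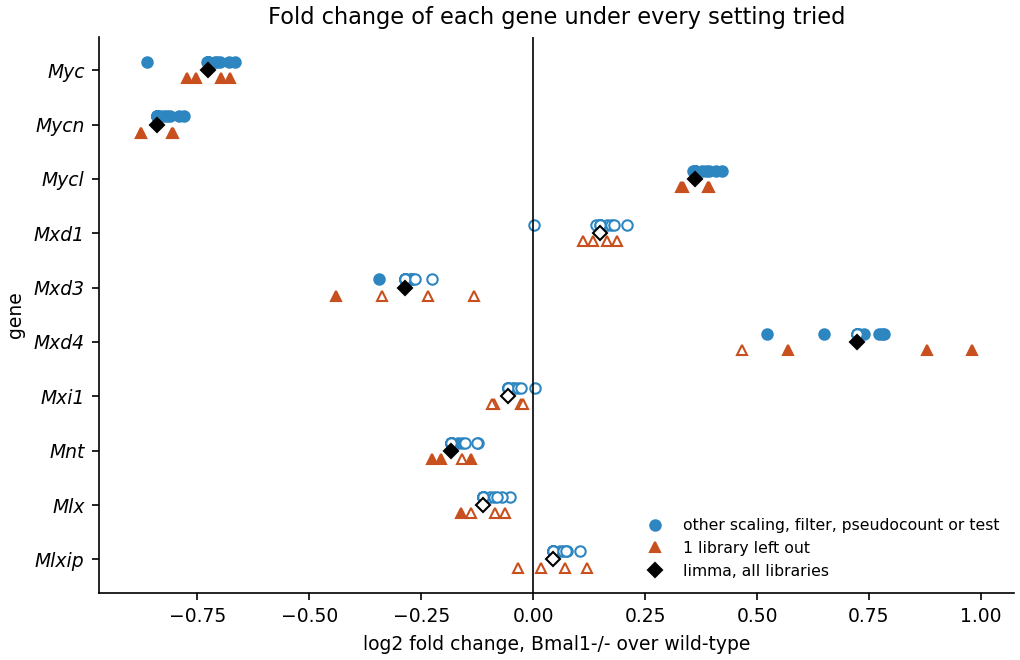
log2 fold change of each of the 10 genes under every setting, with limma on all libraries as black diamonds, fits with 1 library left out as orange triangles and other scalings, filters, pseudocounts or tests as blue circles. Filled symbols have an adjusted p under 0.05: all symbols of Myc, Mycn and Mycl are filled, and those of Mxd3, Mxd4 and Mnt are mixed.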

How the data were processed

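mRNA-seq of JM8 mESCs (2 wild-type, 2 Bmal1-/-; total RNA, TruSeq Stranded mRNA, paired 75-bp reads) was used. Per the labels and methods, the authors used bcl2fastq 2.18.0.12, cutadapt 1.9.1 and STAR 2.5.2b with mm9, and NOISeq for TMM; the read counter and annotation are not given in the sources used here. The deposited values are a normalized signal, a gene's reads over a factor of its library. Whole reads were recovered for 100% of values (tolerance 0.01 of a read); a floor of 3 reads is a value of 2.82 to 3.19. All 4 columns were used.

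Limma 3.58.1 in R 4.3.3 was run on log2(value + 1) for genes averaging at least 10, with a trend of variance over level (18.1 prior degrees of freedom). This scale understates changes of low genes. No covariate was used. P-values were adjusted over all genes tested. Within groups, reads differed beyond counting error (chi-square per degree of freedom 2.95 and 1.94), so no libraries were merged. Alternatives were no filter, means of at least 1 or 100, pseudocounts of 0.5 and 10, median-ratio size factors, equal library totals, quantile normalization, no trend, a replicate block, each library left out (a lone library is then assumed to vary like the other group), and edgeR 4.0.16 and DESeq2 1.42.0 on whole reads. Levels per kb use the union of a gene's exons, or its longest transcript as an alternative, in a GENCODE annotation of NCBIM37. Tests were tried on simulated data first. Tables and figures used Python 3.11.15, pandas 2.3.3, numpy 2.4.6 and matplotlib 3.10.9.

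The genes and lists were chosen with earlier results of these data known. Named are all 10 genes, Max, Mga, Mlxipl and Arntl, and per hand-written list the 2 highest and 2 lowest fold changes among called genes, except 1 list gene that is not reported here. Pou5f1, Psmc3ip, Prelid1, Gm15747, Dcn, Lum, Fabp7, the markers that did not pass the test and the neighbouring genes were named after their values were seen. Some list symbols were matched through RefSeq synonyms, and Dab2, Tcstv1 and Tcstv3 were not matched. E-boxes were sought in RefSeq promoter windows.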

Additional observations from a re-analysis of the deposited data

How the results depend on the processing

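The 10 genes gave 2 higher and 4 lower. The number higher was 1 with no filter, with a mean of at least 100 (Mxd4 was not tested there) and without the intensity trend. The number lower was 2 with no filter, with equal library totals, without the trend and with DESeq2. With each library left out, the number higher ranged from 1 to 2 and the number lower from 2 to 4. The lowest values came without Bmal1-/- replicate 1 (1 higher) and without Bmal1-/- replicate 2 (2 lower). The number past 2-fold was 0 in every setting. The sign of Mxi1 reversed with equal library totals (0.0029), and Mlxip ranged from -0.033, without wild-type replicate 2, to 0.12, without wild-type replicate 1; neither passed the test there. Over all alternatives, 139 values of the 10 genes kept their direction and side of the threshold, 17 lost the call and 1 gained it. The causes were not tested. The fit with the replicate block gave 2 higher and 4 lower and changed no call among the 10. Deviations of same-numbered libraries correlated at -0.02 across genes, so the numbers were not taken as pairs. Of all genes tested, 3488 were higher and 4151 lower, against 4200 and 3194 with equal library totals, 2690 and 2536 with DESeq2 and 2545 and 2515 without the trend. Past 2-fold were 1046 of all genes, against 318 with a mean of at least 100. The median of all genes stayed between -0.06 and 0.03. The log2 ratio of the Myc to the Mxd side is the same by construction under any library factor. With the longest transcript it was 0.55 and 0.49 in wild-type and 0.18 and 0.24 in Bmal1-/- libraries. Depth limits Mxd4 most, with 51 to 128 reads per library.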

Other observations

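The genes next to the network genes on the chromosome were looked at after their values were seen, and are given as values. A neighbour here is the nearest gene on a side that passed the filter and does not overlap the network gene. Of 20 neighbours tested, 6 were lower and 1 was higher, which is 35.0% called beside 52.6% of all genes tested. Pvt1, a non-coding RNA gene 47.6 kb beyond Myc, had normalized values of 290 and 279 (wild-type) against 215 and 215 (Bmal1-/-), a log2 fold change of -0.40 (adjusted p = 0.0015 by limma). Fam84b, the neighbour on the other side of Myc at 1160 kb, had a log2 fold change of -0.50 (adjusted p = 0.0053 by limma). The neighbours of Mycn were lower by limma, Ddx1 at a distance of 277 kb with -0.18 (adjusted p = 0.0014) and Fam49a at 560 kb with -0.59 (adjusted p = 0.0030). Zfyve28, 7.15 kb from Mxd4, had values of 169 and 146 in wild-type and 258 and 277 in Bmal1-/- libraries, a log2 fold change of 0.77 (adjusted p = 8.1e-06), in the direction of Mxd4. Neither neighbour of Mycl passed the test, with log2 fold changes of 0.38 for Mfsd2a and -0.09 for Trit1. Snrnp27, next to Mxd1, was lower by limma (-0.27, adjusted p = 0.0014), while Mxd1 did not pass the test, and Rab24, next to Mxd3, was lower too (-0.17, adjusted p = 0.016). Asprv1 near Mxd1, Lman2 near Mxd3 and Poln near Mxd4 did not pass the test. The 8 neighbours of Mlx, Mlxip, Mxi1 and Mnt had adjusted p-values from 0.12 to 0.92 in limma.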
